A study of Mus musculus with 12 samples.

Results

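The genes described here are Myc and 31 genes of ribosome production and Myc-linked growth metabolism, 32 in all of 20432 genes measured. They were chosen by name for their roles in the nucleolus, in rRNA processing, in RNA polymerase I and in polyamine and pyrimidine synthesis. Earlier results of these data were known when they and the comparison lists were chosen, so counts over them are a description. All 32 passed the filter on low values that 12734 genes passed. The cells were mouse pancreatic cancer lines of ductal adenocarcinoma type, 6 in all, which the labels number 52205, 52419, 52424, 53105, 53369 and 53371. The Cre group (6 libraries, labelled JAK1 knockout) holds each line after pBabe-Cre-puro retrovirus had delivered Cre, with infected cells kept by raising puromycin over 2, 4 and 7 µg/ml. The parental group (6 libraries) is the same lines, labelled only as WT (wild type). No culture with an empty vector was analysed here, so infection, drug selection and loss of JAK1 cannot be told apart. Each line and condition has 1 library, so a difference within 1 line carries no replicate error.

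Ribosomes are assembled in the nucleolus. RNA polymerase I transcribes the precursor rRNA, small nucleolar ribonucleoproteins modify it, and processing factors cut and fold it into the small and the large subunit. Myc is a transcription factor that binds DNA with its partner Max at the E-box CACGTG and is known for raising the expression of many of these genes in growing and tumour cells, and JAK1 is a tyrosine kinase that passes cytokine signals to STAT factors.

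The libraries held 11.5 to 18.0 M reads in genes (M, 1e+06 reads), and the values below are normalised counts per 1e+06 reads (CPM). Jak1, the targeted gene, was at 168 ± 44.2 CPM in Cre libraries and 170 ± 26.7 CPM in parental libraries (SD, n = 6 each), and a gene total checks nothing about a deletion of some exons. Of 10 ductal epithelial markers all were measured, and their summed level ran from 360 to 13248 CPM in Cre libraries and from 445 to 13039 CPM in parental libraries. The epithelial cadherin Cdh1 was as low as 0.61 CPM in 1 Cre library and 0.37 CPM in 1 parental library. Summed leukocyte markers (5 measured) ran from 0.534 to 2.91 CPM in Cre and from 0.114 to 3.27 CPM in parental libraries, and the endocrine markers (3 measured) reached 0.0768 CPM in Cre and 0.0788 CPM in parental libraries. The macrophage marker Adgre1 and the endocrine genes Gcg and Neurod1 were at 0 in every Cre library. In parental libraries they reached at most 0.0569, 0.0569 and 0.0743 CPM, each the value of a single read. The acinar markers measured (4) summed to 2.45 to 20.2 CPM in Cre and 1.29 to 13.2 CPM in parental libraries, and the endothelial markers (5) to 0.896 to 5.32 CPM in Cre and 1.22 to 7.01 CPM in parental libraries. Fibroblast markers (9 measured) summed to 10.6 to 1284 CPM in Cre and 10.1 to 2180 CPM in parental libraries. Among these markers the fibroblast gene Pdgfra was lower in the Cre library of 6 of 6 lines (log2 change -0.71, adjusted p = 0.0786 by limma, 0.0391 by edgeR and 1.68e-06 by DESeq2). The ductal keratin Krt19 was higher in 5 of 6 lines (0.49, adjusted p = 0.195 by limma, 0.218 by edgeR and 0.0236 by DESeq2). Other markers of the same lists went the other way. Ductal Muc1 was lower in 5 of 6 lines (-0.62, adjusted p = 0.258 by limma and 0.147 by DESeq2). Fibroblast Acta2 was higher in 5 of 6 (0.91, adjusted p = 0.301 by limma and 0.139 by DESeq2). Of the 10 ductal markers 5 had estimates above 0 and 5 below, and of 5 fibroblast markers tested 2 above and 3 below. The part of these markers in the changes below was not tested.

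Myc was lower in the Cre library of every line, while nearly all of its companions had estimates above 0 after Cre. The Myc level in Cre libraries was 360 CPM in line 52205, 230 in 52419, 250 in 52424, 220 in 53105, 576 in 53369 and 294 in 53371. In parental libraries it was 364 CPM in line 52205, 236 in 52419, 416 in 52424, 275 in 53105, 600 in 53369 and 429 in 53371. The groups overlapped widely, and line 53369 was the highest in both.

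The log2 change of Myc (chromosome 15, 61985341 to 61990361 on GRCm38) was -0.29 (SE 0.11, 95% confidence interval -0.53 to -0.044). This did not pass limma over all genes (adjusted p = 0.293 with Benjamini-Hochberg adjustment), and the unadjusted p was 0.0253. The exact 2-sided sign-flip permutation p was 0.0313, the smallest that 6 pairs allow, and 4.56% of all genes tested were likewise lower in all 6 pairs. The size differed between lines, from -0.73 in 52424, -0.54 in 53371 and -0.32 in 53105 to -0.059 in 53369, -0.039 in 52419 and -0.017 in 52205. In bulk RNA a lower level per cell and fewer expressing cells cannot be told apart. Without line 52424 the change of Myc was -0.20, with an unadjusted limma p of 0.0777.

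The levels of the Cre and the parental group overlapped for all 32 genes, where 0.0393% of all genes tested lay wholly above and 0.055% wholly below. Of the 31 other genes, 30 had an estimate above 0 and 1, the nucleolar chaperone Npm1, an estimate below 0 (-0.025). Among all genes tested 49.9% had an estimate above 0. A higher Cre library in at least 4 lines was seen for 27 of the 32 and for 39% of all genes tested. The median log2 change of the 32 genes was 0.16, beside a median of -0.00024 over all genes tested, and the estimates of the 31 ran from -0.025 to 0.32. None of the 32 passed limma with Benjamini-Hochberg adjustment over all genes tested (adjusted p from 0.256 to 0.948), where 0.0236% of genes were called lower and 0% higher. At an unadjusted limma p under 0.05 there were 5 of them higher and Myc lower, against 6.96% of all genes tested higher and 8.18% lower. On the recovered reads edgeR called 0 of the 32, with 3 higher and 1 lower by unadjusted p under 0.05. Over all genes edgeR called 0% higher and 0.0393% lower, and 6.09% and 8.36% at an unadjusted p under 0.05. DESeq2 also called 0 of the 32, with 3 higher and 1 lower unadjusted, where over all genes it called 0.487% higher and 1.63% lower, and 6.13% and 7.77% unadjusted. The count of 5 was 17 without line 53105, 1 without 52419, 2 without 53369 and 2 without 53371. The share of all genes at that p is not given for these fits, so these counts have no background beside them.

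**Figure D1:**
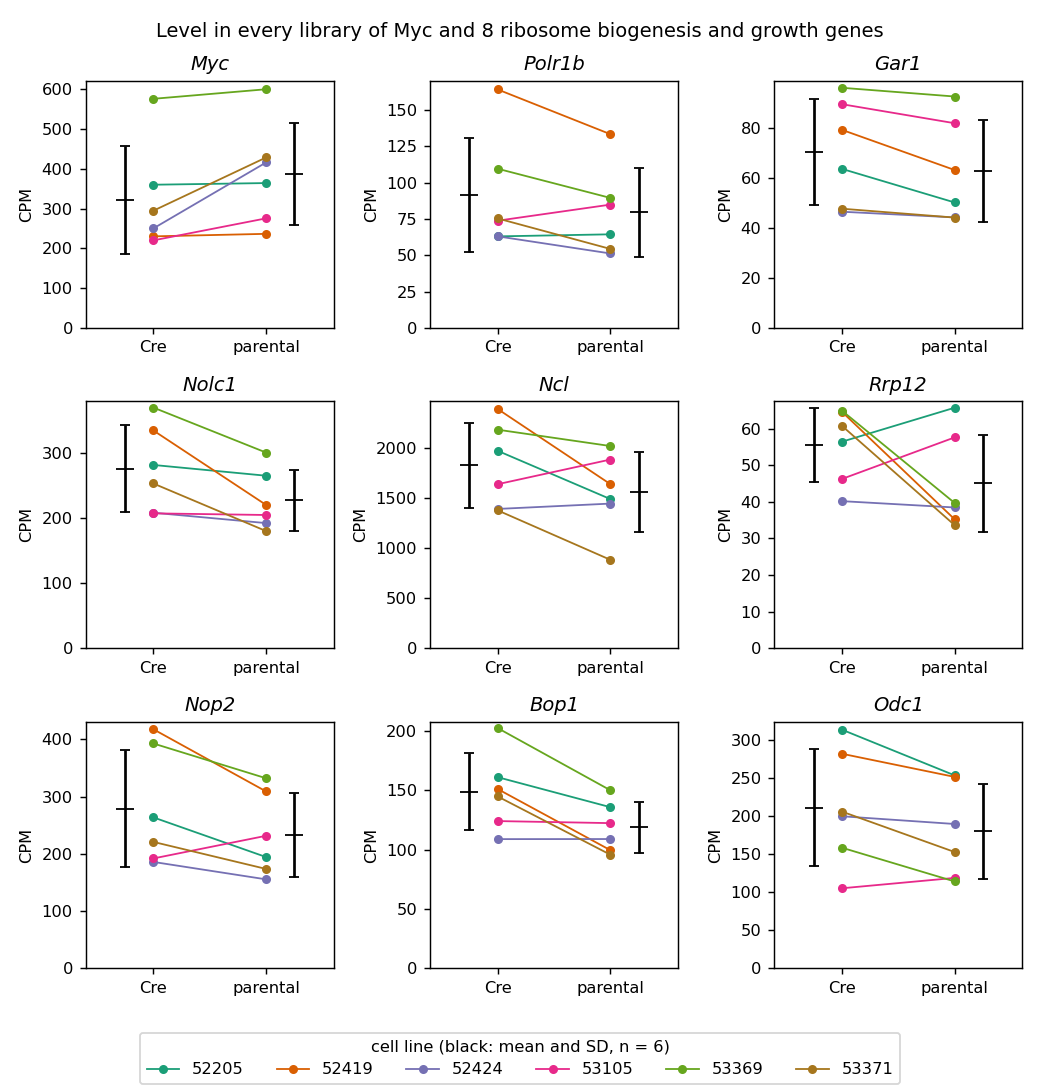
Level in CPM (linear axis from 0) of the 9 genes given in every library, with Cre on the left and parental on the right of each panel, 1 coloured line per cell line, and the mean and SD of 6 libraries in black. Myc slopes up towards the parental side in all 6 lines, Gar1 and Nolc1 slope down in all 6, and the groups overlap in each panel.

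Promoters of the genes were read for the E-box, because it is the textbook binding sequence of Myc with Max. RefSeq windows (GRCm38.p6) ran from 250 bases before to 50 after an annotated start. They were found for 25 of the 32 genes (28 windows) and not for Myc, Tcof1, Fbl, Npm1, Rrp12, Bop1 and Srm. Some genes had several windows, and positions below are counted from the start used for the window. For Wdr43 that start lies after the gene's first base (71616178). The motif CACGTG reads the same on both strands. It stood in 5 of the 25 (20%), in 12% of the 9793 tested genes with a window and in 8.09% of all genes with one. The 5 sites follow 5′ to 3′ on the gene's strand with up to 12 bases on either side, with the motif in capitals.
Nop2: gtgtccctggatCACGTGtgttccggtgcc
Pes1: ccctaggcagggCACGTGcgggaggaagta
Wdr43: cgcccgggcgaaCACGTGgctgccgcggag
Utp20: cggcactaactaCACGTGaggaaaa
Mybbp1a: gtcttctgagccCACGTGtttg
The Nop2 excerpt lies at chr6:125131811-125131840 on the plus strand and its motif begins at base -60 before the start. That of Pes1 (chr11:3963965-3963994, plus strand) begins at transcribed base 3, that of Wdr43 (chr17:71616220-71616249, plus strand) at 18, that of Utp20 (chr10:88826765-88826789, minus strand) at 38 and that of Mybbp1a (chr11:72441355-72441376, plus strand) at 41. The median log2 change was 0.14 over the 5 genes with the motif (from 0.065 for Pes1 to 0.24 for Nop2) and 0.16 over the 20 with a window and no motif, and this difference was not tested. A match is a run of letters and not a measured site.

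The catalytic core of RNA polymerase I and its regulators did not pass the test in either direction. All 5 genes had estimates above 0, with a median log2 change of 0.12 and adjusted p from 0.386 to 0.672 (limma, Benjamini-Hochberg). Polr1b, the second largest subunit (chromosome 2, 129100970 to 129128060), ran from 63.0 CPM over a median of 74.6 to 164 in Cre libraries. The parental libraries ran from 51.2 CPM over a median of 74.7 to 133. Line 52419 was the highest in both groups, and Polr1b was higher in the Cre library in 4 of 6 lines. The change was 0.19 (SE 0.097, limma adjusted p = 0.386). Polr1a, the largest subunit, was at 0.10, Polr1e, an associated subunit, at 0.12, Tcof1, the nucleolar protein treacle, at 0.21, and Mybbp1a, a Myb-binding nucleolar protein, at 0.10.

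Each of the 6 genes of small nucleolar ribonucleoproteins had an estimate above 0, with a median of 0.19, and Gar1 and Nolc1 reached an unadjusted p under 0.05. Each of the 6 was higher in the Cre library in at least 5 lines, where 17.9% of all genes tested were, and Gar1 and Nolc1 were higher in all 6, where 4.11% of all genes tested were. Nolc1 (chromosome 19, 46075847 to 46085543), a nucleolar phosphoprotein that accompanies these particles, ran from 208 CPM over a median of 268 to 370 in Cre libraries. Its level in the parental group ran from 180 CPM over a median of 213 to 301. Its change was 0.27 (SE 0.092, limma adjusted p = 0.266, exact sign-flip permutation p = 0.0313), from 0.018 in line 53105 to 0.60 in line 52419.

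Gar1 (chromosome 3, 129824912 to 129831407), a protein of the H/ACA particles that convert uridine to pseudouridine, ran from 46.5 CPM over a median of 71.6 to 96.2 in Cre libraries. Across parental libraries it ran from 44.2 CPM over a median of 56.7 to 92.7. The change was 0.17 (SE 0.074, limma adjusted p = 0.322), and it was one of 4 genes of the 31 whose Cre library was the higher one in line 53105. The C/D box proteins Nop56 (0.20), Nop58 (0.23) and the methyltransferase Fbl (0.14), and the pseudouridine synthase Dkc1 (0.17), did not pass either. RefSeq names 1 pseudogene of Fbl and 2 of the large-subunit factor Mrto4, and reads of near-identical copies may have been split, so the values of both genes are uncertain. Only named pseudogenes were counted, so the other genes, Npm1 among them, are not shown to be free of such copies.

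Ncl, nucleolin, is an abundant nucleolar RNA-binding protein and Npm1, nucleophosmin, a nucleolar chaperone. Ncl (chromosome 1, 86344719 to 86359455) ran from 1381 CPM over a median of 1810 to 2396 in Cre libraries. Among parental libraries the level ran from 885 CPM over a median of 1568 to 2024. The lowest library was parental 53371, and the change was 0.24 (SE 0.13, limma adjusted p = 0.399). Npm1 averaged 486 ± 206 CPM in Cre libraries and 480 ± 181 CPM in parental libraries (SD, n = 6 each), with changes from -0.53 in line 52424 to 0.37 in line 52205. Divided by the coding length of the longest principal transcript, Ncl was the highest of the 32 at 800 CPM per kb of coding sequence, followed by Npm1 at 551 and Myc at 260, averaged over the 12 libraries. The lowest were Rrp12 at 13.0 and Utp20 at 14.2 CPM per kb. These levels still include reads from untranslated exons.

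The 6 factors of the small subunit all had estimates above 0 with a median of 0.17, and 0 reached an unadjusted p under 0.05. Rrp12, a nuclear export and maturation factor (chromosome 19, 41859483 to 41896153), ran from 40.2 CPM over a median of 58.7 to 65.0 in Cre libraries. Its parental level ran from 33.6 CPM over a median of 39.1 to 65.8. Its pairs split, and their SD of 0.54 was the largest of the 32, with changes of 0.87 in line 52419, 0.85 in 53371 and 0.70 in 53369 against -0.31 in 53105 and -0.22 in 52205. The fitted change was 0.32 (SE 0.17, limma adjusted p = 0.403). The U3 processome members Utp20 (0.23), Wdr43 (0.14) and Rrp9 (0.11), the helicase Ddx21 (0.19) and the assembly factor Noc4l (0.019) did not pass.

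All 9 large-subunit factors had estimates above 0, with a median of 0.14, and Bop1 and Nop2 reached an unadjusted p under 0.05. Bop1 (chromosome 15, 76452988 to 76477249), a scaffold of the complex with Pes1 and Wdr12 that matures the large-subunit rRNA, ran from 109 CPM over a median of 148 to 203 in Cre libraries. In the parental group the level ran from 95.9 CPM over a median of 116 to 150. Its change was 0.32 (SE 0.10, limma adjusted p = 0.256, exact sign-flip permutation p = 0.0625), and its limma p was the smallest of the 32. The changes of its partners Wdr12 (0.16) and Pes1 (0.065) did not pass. The coding genes Scx and Mroh1 overlap Bop1 in the annotation, and without a stated strand step reads from shared bases cannot be told apart. The same holds for Polr1e with Fbxo10, Mybbp1a with Spns2, Nop56 with Idh3b, Dkc1 with Mpp1, Wdr12 with Carf and Cad with Atraid.

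Nop2 (chromosome 6, 125131883 to 125144753), a methyltransferase of the large-subunit rRNA, ran from 186 CPM over a median of 242 to 418 in Cre libraries. Parental levels ran from 156 CPM over a median of 213 to 332. It was higher in the Cre library in 5 of 6 lines, with changes of 0.24 to 0.44 there and -0.27 in line 53105. The fitted change was 0.24 (SE 0.098, limma adjusted p = 0.305). The helicase Ddx18 (0.16) and the large-subunit assembly proteins Mrto4 (0.14), Rrp1b (0.082), Ppan (0.069) and Nop16 (0.058) did not pass.

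The Myc-linked enzymes of growth metabolism had estimates like those of the nucleolar genes. Odc1 (chromosome 12, 17544808 to 17551502), the first enzyme of polyamine synthesis, ran from 105 CPM over a median of 203 to 313 in Cre libraries. The level in parental libraries ran from 114 CPM over a median of 171 to 253. It was higher in the Cre library in 5 lines, with a change of 0.21 (SE 0.093, limma adjusted p = 0.325). Srm, spermidine synthase, was at 0.18. Cad, which starts pyrimidine synthesis, was at 0.24 with the widest range of the 32, from -0.41 in line 52205 to 1.08 in line 53371.

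**Figure D2:**
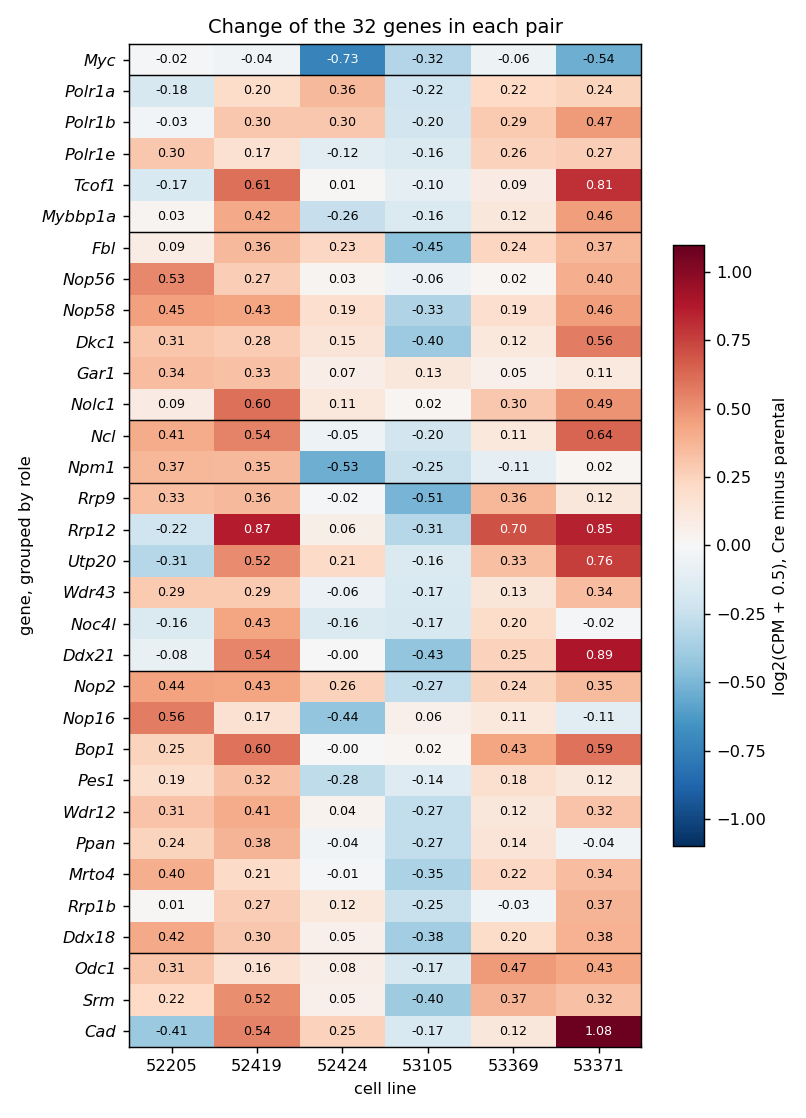
Log2(CPM + 0.5) in the Cre library minus that in the parental library for the 32 genes (rows, grouped by role between black lines) in each of 6 cell lines (columns), with the value printed in each cell. The column of 52419 is above 0 except for Myc (-0.039), and the column of 53105 is below 0 except for Gar1, Nolc1, Nop16 and Bop1.

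The change of the 31 genes other than Myc varied from line to line. In 52419 the Cre library was higher for 31 of 31 genes, with a median log2 change of 0.36, where 51.6% of all genes tested were higher. It was higher for 29 of 31 in 53369 (median 0.20, background 51.1%), for 28 in 53371 (median 0.37, background 47.1%), for 23 in 52205 (median 0.25, background 50.5%) and for 18 in 52424 (median 0.035, background 50.3%). In 53105 it was higher for 4 and lower for 27, with a median of -0.20, where 49% of all genes were higher. Both libraries of 53105 held the most reads in genes (Cre 17.2 M and parental 18.0 M, against at most 14.2 M elsewhere). The part of depth in the changes of this line was not tested. The average of the 6 line medians was 0.17 ± 0.22 (SD, n = 6 pairs), so the spread between lines was larger than the average. The summed level of the 32 genes was 7146 ± 1815 CPM in Cre libraries and 6378 ± 1246 CPM in parental libraries (SD, n = 6 each), and it was higher in the Cre library in 4 lines and lower in 52424 and 53105.

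The changes of Myc and of the other genes did not keep step in every line. In 52424 Myc changed by -0.73 and the median of the 31 by 0.035, and in 53371 by -0.54 and 0.37. In 53105 both were below 0 (-0.32 and -0.20). In 52419, where the 31 were all higher, Myc changed by -0.039. The change of a gene lay above that of Myc for 31 of 31 genes in 52419, 52424 and 53371, for 30 in 53369 and for 23 in 52205 and in 53105. The share of all genes above Myc was not counted, so these counts have no background beside them. The median change over all genes tested also lay above that of Myc in every line (from -0.029 in 53371 to 0.011 in 52419). Across the 6 pairs the correlation of a gene's change with that of Myc had a median of 0.28 over the 31 genes (range -0.45 to 0.89), beside 0.0057 over all genes tested. This correlation was above 0 for 22 of the 31 genes and for 50.3% of all genes tested. It is a description over 6 points, and 2 libraries of a line enter each of them.

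The 31 genes varied together. Over the changes in 6 pairs the median correlation between any pair of them was 0.65, and 95.5% of the gene pairs had one above 0, beside a median of 0 over all pairs of genes tested. Over levels the median was 0.73 in the 6 Cre libraries and 0.58 in the 6 parental libraries, beside -0.003 and -0.001 over all pairs of genes. All genes of a library share its scaling and its culture, and correlations over 6 points are wide. With the level of Myc the 31 genes had a median correlation of 0.50 in Cre libraries, where 29 were above 0, and 0.079 in parental libraries, where 17 were. Over all genes tested the median was -0.020 in Cre libraries, with 48.5% above 0, and 0.0057 in parental libraries, with 50.4% above 0.

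**Figure D3:**
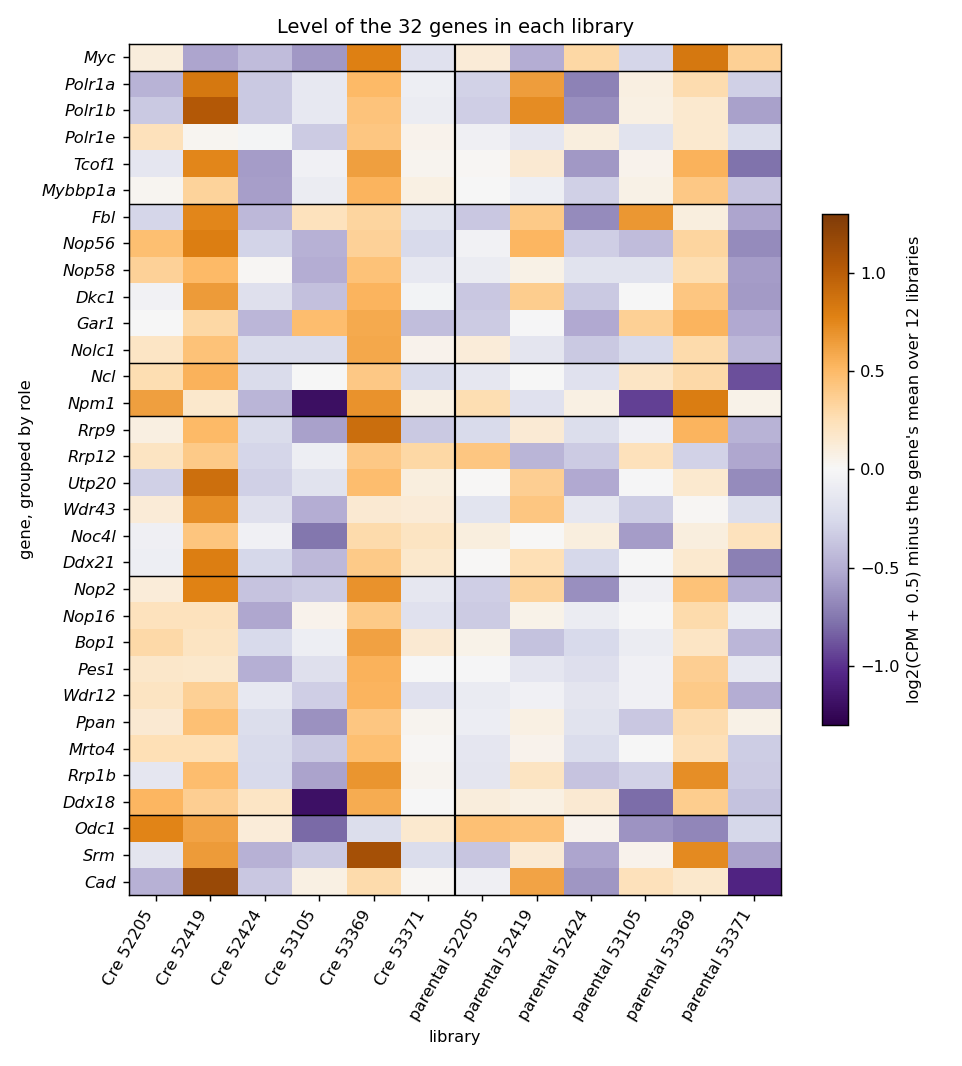
Level of the 32 genes (rows, grouped by role) in each library, as log2(CPM + 0.5) minus the gene's own mean over 12 libraries, with the Cre libraries left of the black line and the parental libraries right of it. The columns of lines 53369 and 52419 are mostly orange (above the mean), and those of line 52424, Cre 53105 and parental 53371 mostly purple (below it).

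For the median of the 32 genes, levels differed more between lines than between Cre and parental libraries. The line term of the same limma fit passed for 27 of the 32 genes, or 84.4% (F-test, Benjamini-Hochberg adjusted p under 0.05), beside 71.1% of all genes tested. The exceptions were Rrp12, Polr1e, Nop16, Mrto4 and Ddx21. For the median gene of the 32, 83.4% of the variance lay between lines, 4.49% between Cre and parental and 12.5% in the rest, beside 84.3%, 2.37% and 10.8% as the medians over all genes tested. The share between lines was thus close to that of the median gene. It is summed over several lines and the Cre share over a single contrast, so these shares are not like for like. For Rrp12 the shares were 29.2% for line, 21.2% for Cre and 49.7% for the rest. For Bop1 they were 56.3%, 27.1% and 16.6%.

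Line 53369 had the highest level of 20 of the 32 genes (19.1% of all genes tested were highest there), line 52419 of 10 (24.1%) and line 52205 of Rrp12 and Odc1 (11.9%). None was highest in 53371, 53105 or 52424, where 11.4%, 16.8% and 16.6% of all genes were. Line 52424 had the lowest level of 16 genes (15.4% of all genes), 53105 of 8 (15.8%), 53371 of 7 (12.1%) and 52419 of Myc alone (25.6%). The fold between the highest and the lowest line, each as the mean log2 level of its Cre and parental library, was 3.53 for Npm1, 2.76 for Ddx18, 2.70 for Srm, 2.66 for Cad, 2.59 for Polr1b, 2.52 for Myc and 2.51 for Odc1. It was 1.46 for Polr1e, the most even gene. Npm1 and Ddx18 were lowest in 53105, with 195 and 232 CPM of Npm1 in its Cre and parental library and 15.0 and 19.7 CPM of Ddx18. The median level of the 31 genes stood 0.36 above the mean of the lines in 53369 and 0.29 above it in 52419 on the log2 scale, 0.0061 above it in 52205, and 0.19 below it in 53105 (-0.19), 0.20 below in 53371 (-0.20) and 0.29 below in 52424 (-0.29).

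Myc and the 31 genes did not have the same order of lines. Line 53369 led for Myc (0.81 above the mean of the lines on the log2 scale) as for the 31 genes, but 52419, second for the 31, was the lowest for Myc (-0.52). Lines 53369 and 52419 also had the lowest ductal epithelial markers, with a median log2 level of -1.47 and -4.56 relative to the mean of the lines, against 0.83 to 2.45 in the other 4. Their fibroblast markers (5 tested) stood at 3.54 and 1.49, against -2.56 to 0.58. The part of these marker differences in the levels of the ribosome biogenesis genes was not tested.

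Other ribosome biogenesis genes, in lists that hold none of the 32, had mostly estimates above 0, with a smaller median. Of 121 tested, 90 lay above 0 and the median log2 change was 0.096. Limma and edgeR called 0 of them and DESeq2 called Wdr46, where DESeq2 called 0.487% of all genes tested higher. By unadjusted limma p under 0.05 there were 13 up and 2 down, against 6.96% and 8.18% of all genes tested. By line their median was 0.21 in 52419, 0.19 in 52205, 0.14 in 53371, 0.13 in 53369, -0.066 in 53105 and -0.082 in 52424. Wdr46, a small-subunit processome protein, was at 83.4 ± 15.2 CPM in Cre libraries and 67.4 ± 9.19 CPM in parental libraries (SD, n = 6 each) and higher in 6 of 6 lines, with a change of 0.30 (limma adjusted p = 0.177, DESeq2 adjusted p = 0.0482). Nop10, an H/ACA protein, was at 0.26, Ftsj3, a large-subunit methyltransferase, at 0.24 and Nop53, a large-subunit factor, at -0.29, and none of these passed.

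By list, 14 of 19 other polymerase I genes, 10 of 13 snoRNP genes, 35 of 44 small-subunit genes and 31 of 45 large-subunit genes had estimates above 0. Of 46 genes of Myc-linked growth metabolism 35 lay above 0, the median being 0.12. By unadjusted limma p under 0.05 there were 9 higher and 1 lower, against 6.96% and 8.18% of all genes tested. Limma, edgeR and DESeq2 called 0 of the 46. The nucleoside diphosphate kinase Nme1 was at 0.44 and higher in 6 of 6 lines (limma adjusted p = 0.204), and Mthfd1, an enzyme of one-carbon metabolism, was at 0.44 (limma adjusted p = 0.205).

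Myc's partners and antagonists had no call. Of 17 tested genes of the Myc and Max network 12 lay below 0, the median being -0.063. By unadjusted limma p under 0.05 there were 3 lower and 0 higher, against 8.18% and 6.96% of all genes tested. The Myc antagonist Mxi1 was at 72.7 ± 22.0 CPM in Cre libraries and 101 ± 24.4 CPM in parental libraries (SD, n = 6 each), a change of -0.49 (limma adjusted p = 0.257), and lower in 5 of 6 lines. Mxd1, another antagonist, was at -0.30 (adjusted p = 0.299, limma with Benjamini-Hochberg adjustment). Among 15 tested p53 targets, some of which respond when ribosome assembly fails, 7 lay above 0 and 8 below it, the median being -0.017. Of these 15, 1 was higher and 2 lower by unadjusted limma p under 0.05, against 6.96% and 8.18% of all genes tested. The cell-cycle inhibitor Cdkn1a was at 23.4 ± 10.3 CPM in Cre libraries and 35.4 ± 16.3 CPM in parental libraries. It was lower in 6 of 6 lines, with a change of -0.60 (limma adjusted p = 0.209, DESeq2 adjusted p = 0.0467). DESeq2 called 1.63% of all genes tested lower. Bax, another p53 target, was higher in 6 of 6 lines, with a change of 0.22 (limma adjusted p = 0.257).

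Genes of the ribosomal proteins themselves had mostly estimates below 0. Of 78 tested, 18 lay above 0 and 60 below it, the median log2 change being -0.090. Limma, edgeR and DESeq2 called 0 of them. By unadjusted limma p under 0.05 there were 3 higher and 2 lower, against 6.96% and 8.18% of all genes tested. In line 53371 the median of the ribosomal proteins was -0.46, with 71 of 78 lower, beside 0.37 for the 31 genes. In 52424 it was -0.34 with 74 lower, beside 0.035. In 52205 it was 0.44 with 77 higher, beside 0.25. The other lines had medians closer to 0, at 0.0098 with 41 higher and 37 lower in 52419, -0.053 with 29 and 49 in 53105, and -0.087 with 23 and 55 in 53369. Many ribosomal protein genes have near-identical pseudogenes, so their counts are uncertain, and each of these values compares 1 library with 1 other.

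Cell-cycle genes had larger estimates than the ribosome biogenesis genes. All 40 E2F and mitotic genes tested had one above 0, and 25 were higher at an unadjusted limma p under 0.05 (6.96% of all genes tested). The 40 genes had 0 calls by limma, edgeR or DESeq2. They summed to 4718 CPM in Cre 53371 and 1106 CPM in parental 53371, the lowest of 12 libraries, and parental 53371 also had the lowest summed level of the 32 genes (4740 CPM, against 6225 CPM in Cre 53371). Their median log2 change was 2.20 in 53371, 0.65 in 52424, 0.32 in 52205, 0.30 in 52419, 0.14 in 53369 and -0.048 in 53105. The lowest value of both groups of genes fell in 53105, while 52424 had the second highest change of the cell-cycle genes and a median of 0.035 for the 31. Without line 53371 the median of the 32 genes was 0.096. The part of the cell-cycle difference in the change of the 32 genes was not tested.

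**Figure D4:**
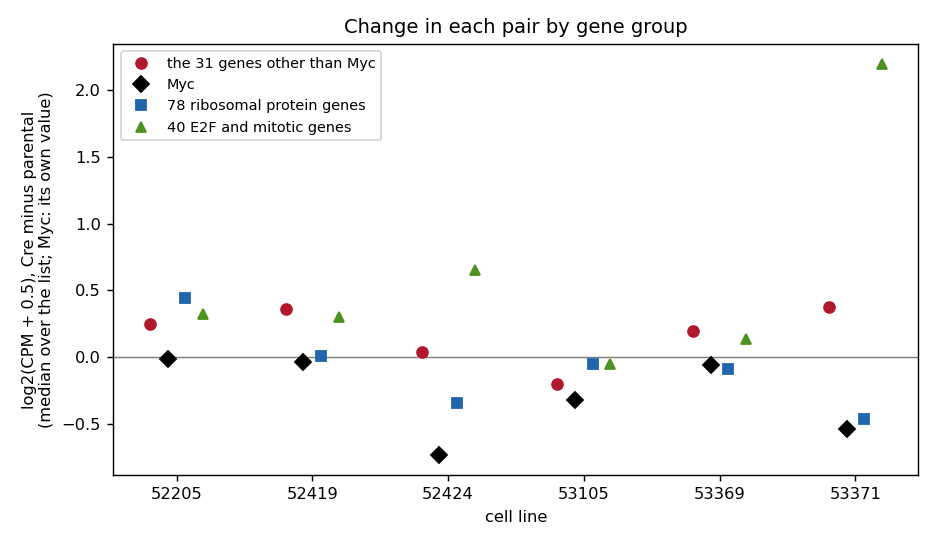
Log2(CPM + 0.5) in Cre minus parental libraries in each of 6 cell lines, as the median over the 31 genes other than Myc (red circles), over 78 ribosomal protein genes (blue squares) and over 40 E2F and mitotic genes (green triangles), with Myc's own value as black diamonds. The red circles lie above the black diamonds in all 6 lines, and the blue squares lie below 0 in 52424, 53105, 53369 and 53371. The median over all genes tested, which is not drawn, also lies above the value of Myc in all 6 lines.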

How the data were processed

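Poly(A)-selected RNA of cultured cells was sequenced without a stated strand-marking step, per the labels' protocols. FastQC 0.11.9, featureCounts and edgeR are listed in the submitters' processing notes, with builds GRCm38 and mm10. For the aligner, the name is not given in the sources used here. Values in the authors' deposited linear table are a signal per gene, read here as normalised CPM. In each library its values were whole multiples of a fixed step (0.0569 to 0.0896, 100% of values above 0, tolerance 0.01), and division by it gave whole reads. The deposited log2 table holds 10903 genes, the same as those at 5 CPM or more in at least 6 libraries.

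Symbols came from RefSeq (GRCm38) for 19448 Entrez numbers and from GENCODE for 11. The test took the 12734 genes that reached 1 CPM, by column total, in 6 or more libraries. Log2(value + 0.5) was fitted with limma-trend (limma 3.58.1 under R 4.3.3), blocked by cell line, since the series design names isogenic pairs. The change in Cre was tested 2-sided and the lines by an F-test, both with Benjamini-Hochberg adjustment. Deviations from the group mean correlated within lines at 0.732 to 0.946, for each Cre library more than with any other line. A log2 change on this scale understates low genes. The labels name no repeat cultures, so p-values measure the spread between lines. The fit was also run on simulated data in which a changed gene had the same change in every line. That run does not cover changes that differ between lines.

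Values from every library, or their lowest, median and highest, are given by rule for Myc, for genes with an unadjusted p under 0.05 and for the smallest p in each role, and from other lists the 2 smallest p may be named. The members and lists were chosen with earlier results of these data known. Alternatives were pseudocounts of 0.1 and 2, no filter and a stricter one, column-total and DESeq2 scaling, the log2 table, no block, edgeR 4.0.16, DESeq2 1.42.0 and each line left out. Figures were drawn with matplotlib 3.10.9. A withheld item is not reported here, and the marker list it stood in was summed without it.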

Additional observations from a re-analysis of the deposited data

Results flagged for a closer look

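Of 30 groups of 6 values checked for a value far from the others, 1 was singled out, where chance alone singles out about 1 in 20. The log2 change of Nop2 in line 53105 was -0.27, while the other 5 lines lay between 0.24 and 0.44.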

How the results depend on the processing

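The 9 genes given in full kept their direction and stayed short of the threshold under all 16 alternatives, and the median of the 32 genes stayed above 0 (0.096 to 0.25 over the lines left out in turn). Estimates above 0 numbered 29 to 31 with a line left out and 30 otherwise, a count added after the data were seen. The line term passed for 19 to 28 of the 32 and 6499 to 9379 genes with a line left out. Genes called lower after Cre, 3 in all, were 0 with no filter, 0 with no replicate block, 5 by edgeR, 208 by DESeq2 (with 62 higher) and 0 to 5 with a line left out. Of the 32, the 5 higher at an unadjusted p under 0.05 were 3 in the log2 table, 3 by edgeR and 3 by DESeq2. They were 0 with no replicate block and 1 to 17 with a line left out. For the fits with a line left out, the share of all genes at that p is not given. Myc, the 1 lower, was counted in 0 with no replicate block and in 0 to 1 with a line left out. Its change was -0.34 to -0.20 over the lines left out. The cause of these differences was not tested. Each of the 32 had at least 199 reads in every library.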

Other observations

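Levels of ribosomal protein genes were lowest in line 53105, where the median of 78 genes stood at -1.37 on the log2 scale relative to the mean of the lines. Their summed level there was 11584 CPM in the Cre library and 11367 CPM in the parental library. In the other lines it ran from 14429 to 25509 CPM in Cre libraries and from 13921 to 22867 CPM in parental libraries. Counts of these genes are uncertain where pseudogenes share their sequence.

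Polr2f, a small subunit shared by the nuclear RNA polymerases, was at 84.1 ± 17.4 CPM in Cre libraries and 75.0 ± 16.7 CPM in parental libraries (SD, n = 6 each) and higher in 6 of 6 lines, its log2 change being 0.17 (limma adjusted p = 0.316, Benjamini-Hochberg). Bax, a p53 target that promotes cell death, was at 77.1 ± 8.96 CPM in Cre libraries and 66.2 ± 7.92 CPM in parental libraries and higher in 6 of 6 lines, with a change of 0.22 (limma adjusted p = 0.257).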
